A study of Homo sapiens with 6 samples.

Results

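Serpins are a family of proteins named for serine protease inhibitors. Described here are 25 of the 16715 genes of the expression table, chosen because their Ensembl identifier maps to a symbol starting with SERPIN and ordered by clade, the letter after SERPIN. RNA-seq was made from HCT116, an established human colorectal carcinoma line, in 3 control libraries and 3 libraries of cells given 5aza at 5 µM for 48 hours and then kept in fresh medium for another 48 hours. All libraries come from this line alone, and nothing in the labels says that replicates were separate cultures, so p-values measure the spread between these libraries, which may be technical. The labels call the compound 5aza in titles and DAC in the column codes. Its full name was not given in the sources used here.

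An inhibitory serpin offers an exposed loop to its protease as bait. When the protease cuts the loop, the serpin changes shape and drags the enzyme into a covalent, inactive complex, so each inhibitor molecule is used once. Clade A holds many secreted proteins of blood plasma made mainly by the liver, and clade B holds proteins that mostly stay inside the cell. Some members inhibit no protease, such as the collagen chaperone SERPINH1. Azanucleosides such as 5aza enter DNA in place of cytidine and trap DNA methyltransferases, which place methyl groups on cytosines in CG dinucleotides.

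The 250 bases before the start site of 5 clade B genes are shown, the first 4 on chromosome 18 and SERPINB1 on chromosome 6. They come from both clade B clusters and were chosen with the genes' values known. The first 4 are the chromosome 18 members with every 5aza library above every control library. SERPINB3, SERPINB4 and SERPINB12 are not printed. Sequences are RefSeq's on GRCh38.p14, written 5′ to 3′ in the direction of transcription. Capitals mark CG dinucleotides and each match to TGANTCA, where N is any base. This loose pattern takes in motifs of AP-1 transcription factors, but a match to it need not be one. The SERPINB5 stretch is chr18:63476708-63476957 (plus strand), with 13 CG.
SERPINB5: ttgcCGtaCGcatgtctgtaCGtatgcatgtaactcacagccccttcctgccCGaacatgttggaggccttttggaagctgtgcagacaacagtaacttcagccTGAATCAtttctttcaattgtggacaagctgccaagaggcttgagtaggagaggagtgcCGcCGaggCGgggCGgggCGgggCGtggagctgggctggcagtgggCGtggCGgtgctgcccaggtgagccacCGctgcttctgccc
The SERPINB8 stretch is chr18:63969831-63970080 (plus strand), with 7 CG.
SERPINB8: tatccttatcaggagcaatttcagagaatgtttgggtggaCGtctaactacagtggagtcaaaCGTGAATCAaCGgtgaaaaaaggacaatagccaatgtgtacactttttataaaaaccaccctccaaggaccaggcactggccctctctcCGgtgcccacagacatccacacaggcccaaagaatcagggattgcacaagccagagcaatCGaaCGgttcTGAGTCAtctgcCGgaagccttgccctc
The SERPINB2 stretch is chr18:63887455-63887704 (plus strand), with 0 CG.
SERPINB2: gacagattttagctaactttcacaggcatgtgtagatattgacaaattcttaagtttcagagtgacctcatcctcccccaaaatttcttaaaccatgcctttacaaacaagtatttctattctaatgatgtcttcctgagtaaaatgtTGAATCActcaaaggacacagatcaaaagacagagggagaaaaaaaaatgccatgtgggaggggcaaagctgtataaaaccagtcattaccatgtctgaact
The SERPINB7 stretch, at the third of its listed starts, is chr18:63777531-63777780 (plus strand), with 0 CG. The 250 bases before its first start, not printed, hold 1 CG and 0 matches to TGANTCA, and those before its second 0 CG and 2 matches.
SERPINB7: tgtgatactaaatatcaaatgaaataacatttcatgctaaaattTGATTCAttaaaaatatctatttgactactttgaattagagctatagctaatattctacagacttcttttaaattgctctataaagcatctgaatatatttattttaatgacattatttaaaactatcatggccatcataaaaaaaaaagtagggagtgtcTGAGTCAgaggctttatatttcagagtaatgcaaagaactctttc
The SERPINB1 stretch is chr6:2841864-2842113 (minus strand), with 21 CG.
SERPINB1: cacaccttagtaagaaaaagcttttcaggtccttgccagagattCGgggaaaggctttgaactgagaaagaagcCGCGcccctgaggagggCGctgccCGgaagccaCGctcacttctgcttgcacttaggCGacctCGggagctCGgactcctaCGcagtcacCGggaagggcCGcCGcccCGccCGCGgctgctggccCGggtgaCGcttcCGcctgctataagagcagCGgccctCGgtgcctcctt
The CG counts of these chosen stretches are descriptions and were not set against the genes' response.

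Values are FPKM, read fragments scaled to transcript length and to library size. Testing on log2(FPKM + 0.1) with limma needed 0.5 FPKM or more in 3 or more of the 6 libraries, which 14 of the 25 serpin genes had. The words rose and fell are used for a Benjamini-Hochberg adjusted p under 0.05, adjusted over all 12360 genes tested. By this measure 7 of the 14 serpin genes rose, 0 fell and 7 did not pass. Among all genes tested 23.7% were called, 10.6% as rises and 13.1% as falls. SERPINA3 reached the filter only through its 5aza libraries, so it had to differ, and without it 6 of 13 rose. Of the 7 rises, 4 were at least 2-fold on the log2 scale, and rises of that size made up 2.17% of all genes tested. SERPINA3 is 1 of these 4. Of the 7 that did not pass, 4 had an unadjusted p under 0.05 by limma. SERPINA4, SERPINB1 and SERPINB9 were higher in 5aza, and 1 was lower, SERPINB6. The share of all genes at this unadjusted level was not counted. The groups did not overlap in 10 of the 14, as in 42.2% of all genes tested, with 9 higher and 1 lower in 5aza. The median log2 fold change of the 14 was 0.33, beside -0.01 over all genes tested. SERPINA3 is counted in this median and among the 10 and the 9 as well.

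**Figure D1:**
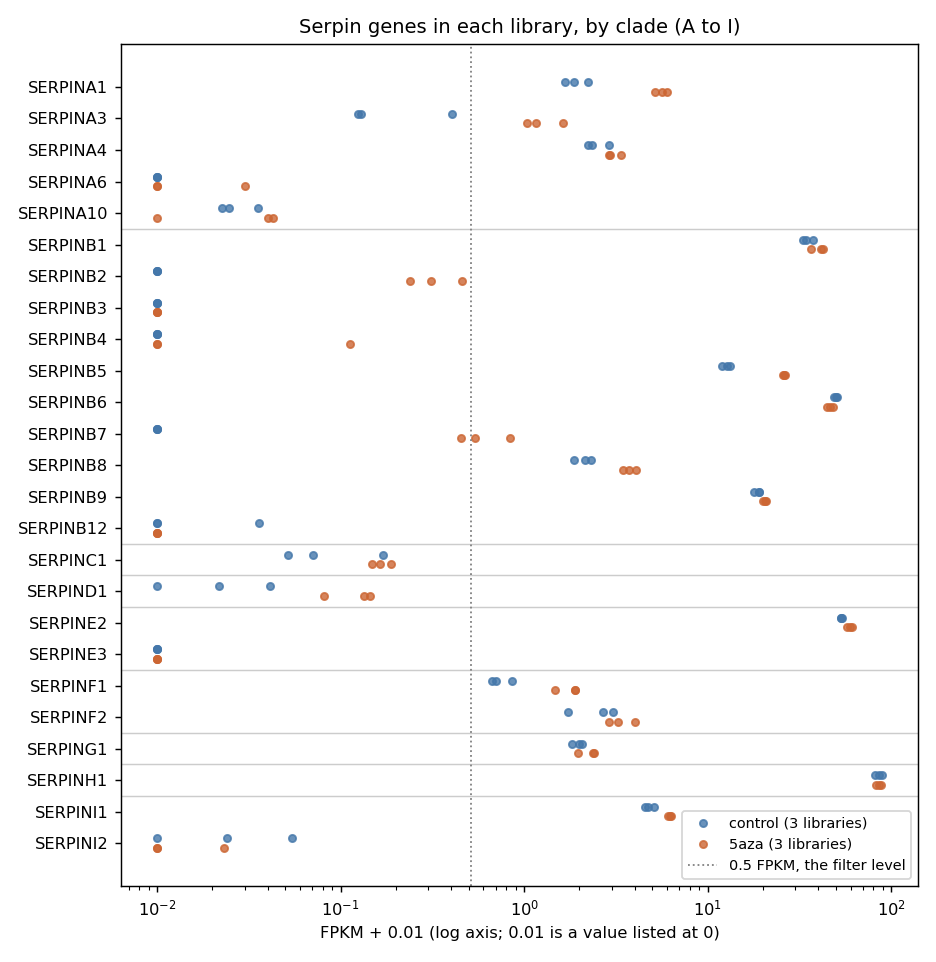
FPKM plus 0.01 on a log axis for the 25 serpin genes in each of 3 control (blue) and 3 5aza (orange) libraries, with lines between clades. The 5 genes most abundant in control sit at 17.9 FPKM or more in every library, SERPINB5 passes SERPINB9, the fifth of them, in 5aza, and SERPINB2 and SERPINB7 are listed at 0 in all control libraries and above 0 in all 5aza libraries.

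The family spanned from genes listed at 0 to SERPINH1 at 85.8 ± 3.76 FPKM in control (SD, n = 3). In control libraries, SERPINH1, SERPINE2, SERPINB6, SERPINB1 and SERPINB9 made up 89.2% of the summed FPKM of these 25 genes, and in 5aza libraries 82.2%. Their summed level was 274, 277 and 263 FPKM in control replicates 1 to 3 and 299.6, 311 and 309 FPKM in 5aza replicates 1 to 3. Clade B went in sum from 118 ± 3.19 to 138 ± 2.93 FPKM (SD, n = 3). The largest part was SERPINB5, with means of 12.6 and 26.1 FPKM. SERPINB1 went from 35.0 to 40.2 FPKM and SERPINB6 down from 49.6 to 46.5 FPKM, and neither passed. Clade A, at far lower levels, went from 4.62 ± 0.624 to 9.97 ± 0.274 FPKM, with SERPINA1 going from 1.91 to 5.62 FPKM as its largest part. These sums are descriptions, with no test.

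Rises were counted beside genes of similar control level. Of the 1058 tested genes with a control mean under 1 FPKM, 25.2% rose, but 200 of these had every control library under 0.5 FPKM and so could be tested only through high 5aza values, and 177 of the 200 rose. Among the other 858 genes of that level 10.5% rose. SERPINA3 is one of the 200, which leaves SERPINF1, which rose, as the 1 serpin of that level that could be read beside the 858. Between 1 and 10 FPKM, 3 of 6 serpins rose, beside 10.4% of 4439 genes. Between 10 and 100 FPKM, 2 of 6 serpins rose, beside 9.07% of 5907 genes, and 18.2% of those genes fell, among them 0 serpins.

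**Figure D2:**
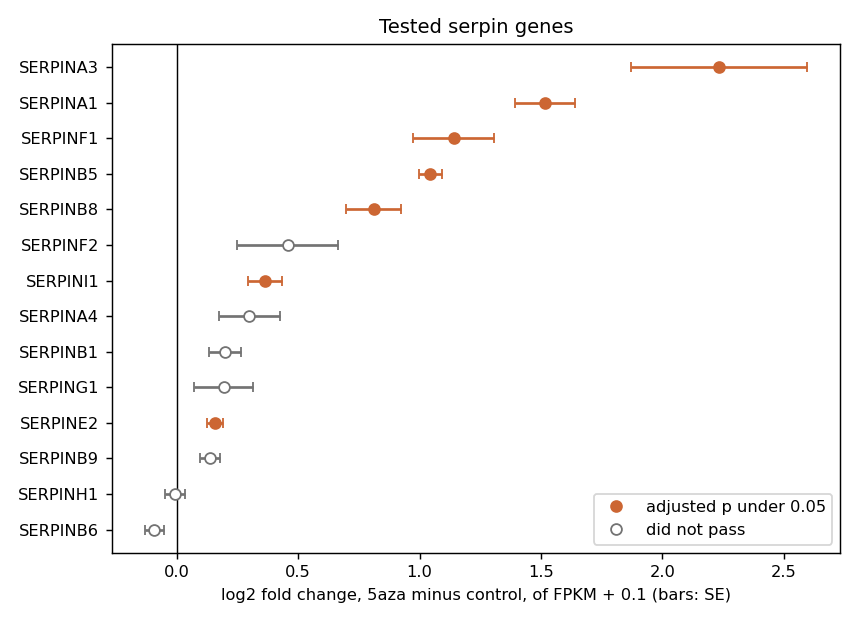
Log2 fold change of FPKM + 0.1, 5aza minus control, for the 14 tested serpin genes, with bars for the SE and filled points for an adjusted p under 0.05. The rises run from 0.16 for SERPINE2 to 2.23 for SERPINA3, and SERPINH1 and SERPINB6 are the 2 genes below 0.

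Clade A holds secreted inhibitors of plasma. SERPINA1 (ENSG00000197249, chromosome 14, 94376747 to 94390693) encodes alpha-1-antitrypsin, the main inhibitor of neutrophil elastase. It stood at 1.65, 2.23 and 1.86 FPKM in control replicates 1 to 3 and at 5.18, 6.02 and 5.66 FPKM in 5aza replicates 1 to 3. The lowest 5aza library was above the highest control library, and the log2 change was 1.52 (SE 0.12, limma adjusted p = 2.77e-04). SERPINA3 (ENSG00000196136, chromosome 14, 94612377 to 94624055), alpha-1-antichymotrypsin, is an acute phase inhibitor of cathepsin G. It stood at 0.120, 0.115 and 0.395 FPKM in control and at 1.15, 1.03 and 1.62 FPKM in 5aza. Control replicate 3 was the highest of the controls, and the groups did not overlap. The log2 change of SERPINA3 was 2.23 (SE 0.36, limma adjusted p = 0.00476). Its span overlaps another annotated gene on the same strand, which was not analysed here.

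SERPINA4, kallistatin, an inhibitor of tissue kallikrein, had means of 2.48 ± 0.357 and 3.06 ± 0.245 FPKM (SD, n = 3). Its groups did not overlap, with 2.88 FPKM in the highest control and 2.90 FPKM in the lowest 5aza library. The difference did not pass (log2 fold change 0.30, SE 0.12, limma adjusted p = 0.123). The span of SERPINA4 overlaps SERPINA5, which was not analysed here. SERPINA6, the corticosteroid carrier of plasma, was above 0 in 1 library, 5aza replicate 2, at 0.0201 FPKM. SERPINA10, an inhibitor of coagulation factor Xa, stayed at or under 0.0327 FPKM in every library.

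Because plasma serpins come mainly from hepatocytes, 7 hepatocyte markers were read beside clade A. Their summed level was 2.27 to 2.68 FPKM in control and 3.01 to 3.42 FPKM in 5aza libraries. Most of the sum was HNF4A, a transcription factor of liver that intestinal epithelium expresses too, with means of 2.22 and 2.85 FPKM, which did not pass (limma adjusted p = 0.0572). The other 6 were under 0.5 FPKM in every library. APOB was listed at 0 throughout, and ALB, albumin, had means of 0.0988 and 0.0280 FPKM. In 5aza the means of APOA1, TF and TTR were higher, at 0.118, 0.104 and 0.0381 FPKM, beside 0.0614, 0.0252 and 0 FPKM in control. TTR was above 0 in 5aza replicate 3 alone, at 0.114 FPKM, and the groups of APOA1 overlapped. FGB had means of 0.0164 FPKM in control and 0.0169 FPKM in 5aza.

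Clade B holds intracellular serpins, and its members fall into a run of 7 genes on chromosome 18 and a run of 3 on chromosome 6. On chromosome 18, 2 of 7 members were tested and both, SERPINB5 and SERPINB8, rose. SERPINB5 (ENSG00000206075, chromosome 18, 63476761 to 63505085) encodes maspin, an epithelial serpin that does not act as a protease inhibitor, known as a tumour suppressor and as a target of p53. It stood at 12.73, 13.19 and 11.999 FPKM in control and at 26.2, 26.5 and 25.8 FPKM in 5aza. The libraries of each group lay close together, and the groups were far apart. The log2 change of SERPINB5 was 1.04 (SE 0.047, limma adjusted p = 1.39e-05), the smallest adjusted p of the serpin genes described.

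SERPINB8 (ENSG00000166401, chromosome 18, 63969925 to 64019779), an inhibitor of furin-like proteases, stood at 2.13, 2.30 and 1.87 FPKM in control and at 4.08, 3.46 and 3.71 FPKM in 5aza. The groups did not overlap, and the log2 change was 0.81 (SE 0.11, limma adjusted p = 0.00266). HMSD, a gene on the same strand whose span overlaps SERPINB8, ranged from 1.13 to 1.83 FPKM in control and from 1.21 to 1.86 FPKM in 5aza and did not pass (log2 fold change -0.04, limma adjusted p = 0.921). How reads in the shared span were assigned was not given in the sources used here, and an antisense gene there was not analysed here.

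SERPINB7 and SERPINB2 were under the filter and were not tested in the fit above. SERPINB7, an epidermal serpin, was listed at 0 in all control libraries and at 0.823, 0.532 and 0.443 FPKM in 5aza replicates 1 to 3. SERPINB2, which encodes plasminogen activator inhibitor 2, was listed at 0 in all control libraries and at 0.230, 0.449 and 0.302 FPKM in 5aza. Both were thus seen in all 5aza libraries and in 0 control libraries. With no filter on low values, the log2 change on the scale of FPKM + 0.1 was 2.77 for SERPINB7 (limma adjusted p = 0.00113) and 2.06 for SERPINB2 (limma adjusted p = 0.00234). These sizes depend on the pseudocount. Over the whole table, each control library listed 1663 or more genes at 0 and each 5aza library 801 or fewer, and the part of this in the SERPINB7 and SERPINB2 values was not tested. The span of SERPINB2 also overlaps SERPINB10, which was not analysed here.

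The other 3 members on chromosome 18 were at or near 0. SERPINB3, squamous cell carcinoma antigen 1, was listed at 0 in all 6 libraries. Its near-identical neighbour SERPINB4 was above 0 in 5aza replicate 3 alone, at 0.102 FPKM. Reads could be split between these copies, so the values of both are uncertain. SERPINB12 was above 0 in control replicate 1 alone, at 0.0260 FPKM.

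The members on chromosome 6 were abundant in both groups, and 0 of the 3 passed. SERPINB1, which inhibits neutrophil elastase and cathepsin G, stood at 37.4, 34.3 and 33.2 FPKM in control and at 36.7, 41.3 and 42.5 FPKM in 5aza. The groups overlapped through 5aza replicate 1 and control replicate 1 (log2 fold change 0.20, SE 0.067, limma adjusted p = 0.0668). Without 5aza replicate 1, SERPINB1 passed (adjusted p = 0.0271). SERPINB9, the inhibitor of granzyme B, had means of 18.6 ± 0.585 and 20.4 ± 0.348 FPKM (SD, n = 3), with no overlap and a limma adjusted p of 0.0514. Both also passed under quantile normalization (adjusted p = 0.0403 for SERPINB1 and 0.0464 for SERPINB9) and with the trend on expression removed (0.0372 and 0.0360), and SERPINB9 with no filter on low values (0.0430).

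SERPINB6, an inhibitor of cathepsin G, stood at 49.7, 50.5 and 48.6 FPKM in control and at 46.4, 48.4 and 44.8 FPKM in 5aza. Each 5aza library was below each control library, but the difference did not pass (log2 fold change -0.09, SE 0.038, limma adjusted p = 0.123). The chromosome 18 and chromosome 6 runs were not tested against each other.

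**Figure D3:**
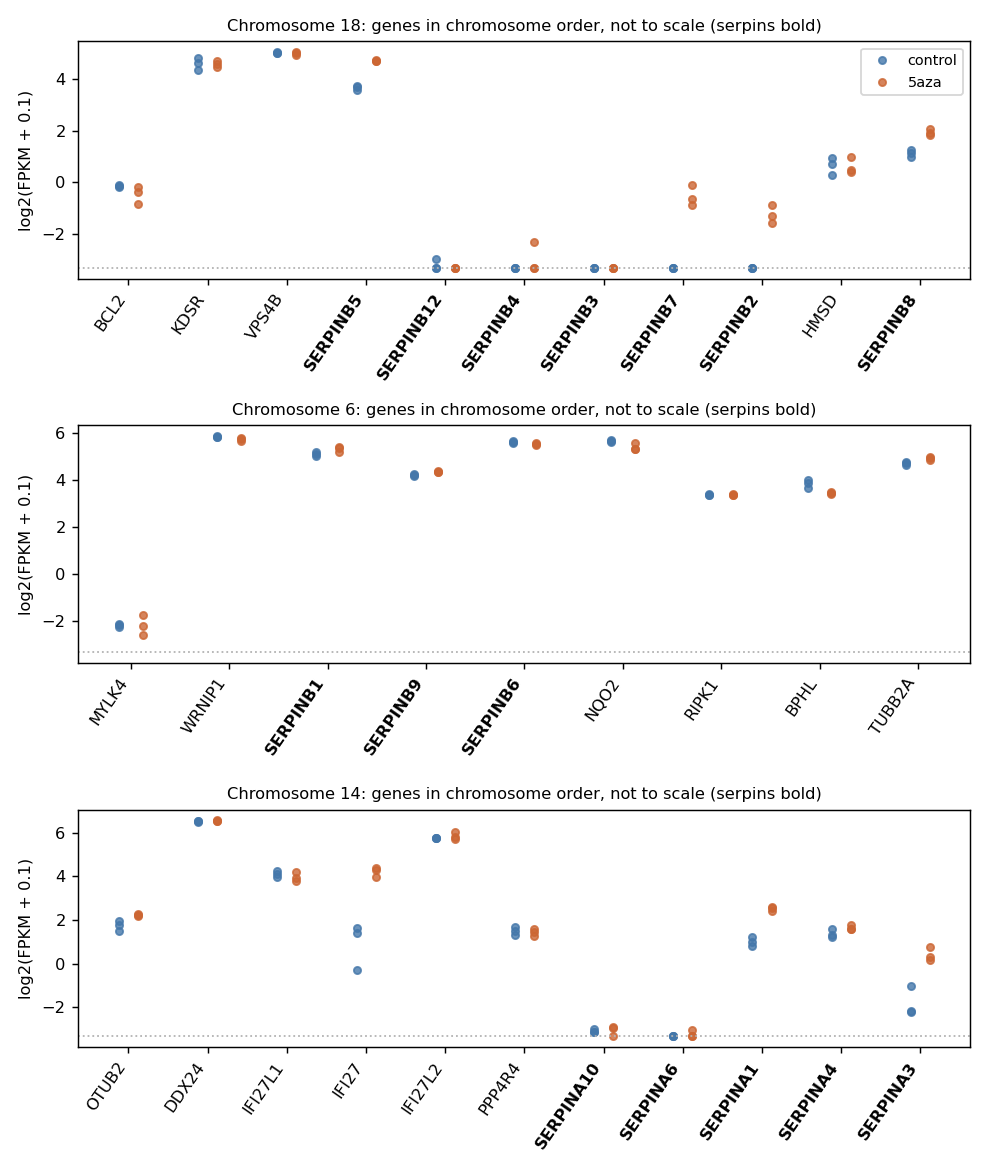
Log2(FPKM + 0.1) in each control (blue) and 5aza (orange) library for serpins (bold) and neighbouring genes on chromosomes 18, 6 and 14, in chromosome order and not to scale, with the dotted line at 0 FPKM. On chromosome 18 SERPINB5 and SERPINB8 rose, and SERPINB7 and SERPINB2, not tested, are higher in 5aza. SERPINB12, SERPINB4 and SERPINB3 lie at or near 0 FPKM. The 4 tested non-serpin neighbours there did not pass, where 23.7% of all genes tested did.

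Genes near the serpin runs were read to see whether neighbours moved as well. Runs were serpins at most 500 kb apart, extended by 250 kb on each side. Over all genes tested, 10.6% rose and 13.1% fell by limma. On chromosome 18, 0 of 4 tested neighbours passed. On chromosome 14, 2 of 6 rose: IFI27, an interferon-induced gene, from 2.07 to 18.4 FPKM, and OTUB2, a deubiquitinase, from 3.29 to 4.60 FPKM. The OTUB2 call was lost without 5aza replicate 1, 2 or 3 (adjusted p = 0.0548, 0.0722 and 0.0670). On chromosome 6, 1 of 5 tested neighbours rose, TUBB2A, and 2 fell, BPHL and NQO2. The BPHL fall was from 14.5 to 10.96 FPKM. The NQO2 call was lost without any 1 library other than 5aza replicate 1 (adjusted p between 0.0631 and 0.101), and with no filter on low values, quantile normalization, the trend on expression removed or no variance trend (between 0.0588 and 0.0862), and the TUBB2A call without 5aza replicate 2 or 3 (0.0524 and 0.0513). On chromosome 17, 1 of 11 rose, SLC43A2, an amino acid transporter, from 10.3 to 15.5 FPKM. Among 2 tested neighbours of the SERPINI genes on chromosome 3, 0 passed, by limma.

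In clade E, SERPINE2 (ENSG00000135919, chromosome 2, 223975112 to 224039319), protease nexin 1, inhibits thrombin and urokinase at the cell surface. It was second in level per length to SERPINH1 in control, at 52.9, 53.8 and 52.9 FPKM, and stood at 59.5, 57.7 and 61.0 FPKM in 5aza. The groups did not overlap, and the log2 change was small, 0.16 (SE 0.033, limma adjusted p = 0.0128). SERPINE3 was listed at 0 in all 6 libraries.

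Clade F holds 2 genes that lie side by side on chromosome 17. SERPINF1 (ENSG00000132386, chromosome 17, 1761959 to 1777574) encodes pigment epithelium-derived factor, a secreted protein that does not inhibit proteases and is known to block blood vessel growth. It stood at 0.657, 0.848 and 0.690 FPKM in control and at 1.46, 1.88 and 1.88 FPKM in 5aza. The groups did not overlap, and the log2 change was 1.14 (SE 0.17, limma adjusted p = 0.00323). SERPINF2, alpha-2-antiplasmin, stood at 3.03, 2.66 and 1.73 FPKM in control and at 2.90, 3.23 and 3.99 FPKM in 5aza. Its groups overlapped, and it did not pass (log2 fold change 0.46, SE 0.21, limma adjusted p = 0.157).

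Among the remaining clades, SERPINI1 rose and the others did not pass or were too low to test. SERPINI1 (ENSG00000163536, chromosome 3, 167735243 to 167825568) encodes neuroserpin, an inhibitor of tissue plasminogen activator known from neurons. It stood at 4.69, 5.10 and 4.57 FPKM in control and at 6.22, 6.28 and 6.07 FPKM in 5aza, with no overlap (log2 change 0.37, SE 0.070, limma adjusted p = 0.00937). SERPING1, the C1 inhibitor of complement, had means of 1.94 ± 0.131 and 2.24 ± 0.240 FPKM (SD, n = 3), with overlap (limma adjusted p = 0.287). SERPINH1, the collagen chaperone HSP47 of the endoplasmic reticulum, stood at 86.3, 89.3 and 81.8 FPKM in control and at 82.4, 88.1 and 85.4 FPKM in 5aza. The groups of SERPINH1 overlapped (log2 fold change -0.01, SE 0.042, limma adjusted p = 0.917), and the sign turned under 4 alternatives.

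SERPINC1, antithrombin, SERPIND1, heparin cofactor 2, and SERPINI2 were under the filter. SERPIND1 was at 0, 0.0314 and 0.0116 FPKM in control and at 0.135, 0.0714 and 0.124 FPKM in 5aza. Its groups did not overlap, and it passed with no filter on low values (limma adjusted p = 0.0211). SERPIND1 lies within the span of PI4KA, on the opposite strand, and strand marking was not given in the sources used here, so reads of the 2 genes may not have been told apart. PI4KA fell from 15.7 to 13.6 FPKM (limma adjusted p = 0.0166), a call lost without control replicate 1 or 5aza replicate 2 (0.0587 and 0.0528). SERPINC1 stayed at or under 0.179 FPKM and SERPINI2 at or under 0.0440 FPKM, with overlap in both.

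The proteases that serpins inhibit were read beside them. Of 51 listed, 37 had a value and 23 were tested by limma. Rises numbered 7 and falls 0, beside 10.6% and 13.1% of all genes tested, and the median log2 fold change was 0.14. Without GZMM, which could be tested only through its 5aza libraries, 6 of 22 rose, with a median of 0.13. KLK5, a kallikrein-related peptidase of the epidermis, had means of 0.466 ± 0.109 and 2.27 ± 0.210 FPKM (SD, n = 3) and rose (log2 change 2.08, SE 0.18, limma adjusted p = 3.94e-04). GZMM, granzyme M, rose from 0.176 to 0.801 FPKM and had under 0.5 FPKM in all controls. The GZMM call was lost without control replicate 1 or 2 or 5aza replicate 2 or 3 (adjusted p between 0.0589 and 0.0808) and under quantile normalization (0.0966). PLAU, urokinase, and PLAT, tissue plasminogen activator, both known as targets of SERPINE2, were chosen after their values were seen. PLAU stood at 15.02, 17.0 and 15.2 FPKM in control and at 20.1, 21.7 and 22.0 FPKM in 5aza (log2 change 0.43, SE 0.062, limma adjusted p = 0.00304). PLAT rose from 5.12 to 6.67 FPKM (adjusted p = 0.0271), and that call was lost without control replicate 1 or 2 or 5aza replicate 2 or 3 (adjusted p between 0.0677 and 0.0859). PLAUR, the urokinase receptor, had means of 25.1 and 27.7 FPKM and did not pass (adjusted p = 0.0797), but did with the trend on expression removed (0.0453). PLG, plasminogen, was listed at 0 in all 6 libraries.

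Of 16 receptors and cofactors of serpins, 12 were tested by limma, with 1 rise and 0 falls. Shares over all genes tested were 10.6% rises and 13.1% falls. The 1 receptor or cofactor that rose was SDC4, a heparan sulphate proteoglycan, with means of 49.0 ± 1.80 and 93.6 ± 1.39 FPKM (SD, n = 3). Its log2 change was 0.93 (SE 0.036, limma adjusted p = 4.80e-06). Genes that fold or modify collagen with SERPINH1 numbered 18 tested, with 3 rises and 1 fall, beside the same 10.6% and 13.1%. P3H1, a prolyl 3-hydroxylase, rose from 16.4 to 21.4 FPKM, P4HA1, a prolyl 4-hydroxylase subunit, from 20.3 to 25.7 FPKM, and P3H3 fell from 19.5 to 16.4 FPKM. The P4HA1 call was lost without 5aza replicate 3 (adjusted p = 0.0701) and with no variance trend (0.0551), as was the P3H1 call with no variance trend (0.0513). The P3H3 call was lost without control replicate 2 or 3 or 5aza replicate 3 (between 0.0591 and 0.0635), and the P3H1 call without control replicate 1 or 2 or 5aza replicate 1 or 2 (between 0.0523 and 0.0644). The median log2 fold changes of these lists were 0.02 each.

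Of the protease inhibitor families outside the serpins, 16 listed genes were tested by limma, with 2 rises, 2 falls and a median log2 fold change of 0.04. Shares over all genes tested were 10.6% rises and 13.1% falls. The list was not tested against the serpins. BST2, which rose from 2.25 to 6.61 FPKM, is an antiviral membrane protein and not a protease inhibitor, and without it 1 of 15 rose, with a median of 0.01. That rise was of TIMP2, an inhibitor of matrix metalloproteinases, from 63.8 to 70.3 FPKM. CST6, a cystatin, fell from 77.4 to 69.6 FPKM, and PEBP1, better known as an inhibitor of the RAF kinase, from 202 to 183 FPKM. The calls on TIMP2, CST6 and PEBP1 were lost without control replicate 1, control replicate 2, 5aza replicate 1 or 5aza replicate 3 (adjusted p between 0.0549 and 0.129), and that on TIMP2 also without control replicate 3 (0.05003). CST6 and PEBP1 also lost their calls under quantile normalization (0.152 and 0.140) and with the trend on expression removed (0.259 and 0.423), and CST6 with no filter on low values (0.0658). With no variance trend, TIMP2, CST6 and PEBP1 did not pass (0.0705, 0.102 and 0.0677). Under the filter, TFPI2 was listed at 0 in all control libraries and at 0.547, 0.358 and 0.316 FPKM in 5aza. SLPI was at 0.0985 FPKM or less in control and at 0.185 FPKM or more in 5aza. A2M and ITIH4, also under the filter, had lower means in 5aza, with overlap.

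**Figure D4:**
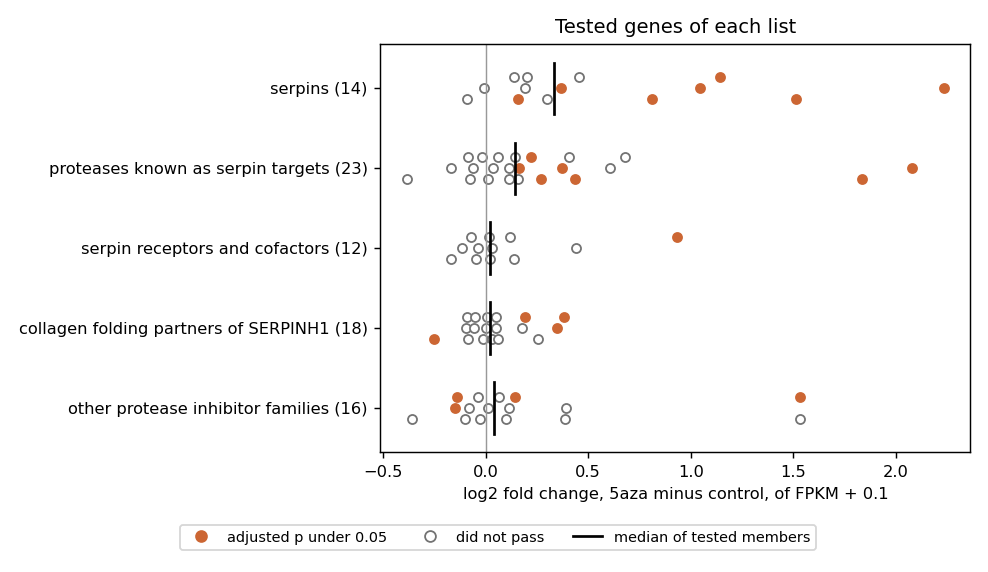
Log2 fold change of FPKM + 0.1, 5aza minus control, for each tested gene of 5 lists, with the number tested in brackets, filled points for an adjusted p under 0.05 and a bar at the median. The median is 0.33 for the serpins, 0.14 for their target proteases and 0.02 to 0.04 for the other 3 lists. The first 2 medians include SERPINA3 and GZMM, each tested only through its 5aza libraries.

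Promoter windows of 300 bases, from 250 before to 50 after the start, were found in RefSeq for 21 of the 25 members, with 33 windows in all. The start lay in a GENCODE transcript of the gene for 30 of these windows. It did not for the window of SERPINB9 and the first windows of SERPINB12 and SERPINI2. No window was found for SERPINC1, SERPINF1, SERPINF2 and SERPING1. Because 78.6% of the tested members had a window, under the 80% needed, a comparison of CG content between members that rose and members that did not is void, and counts are given as descriptions. Over all 35116 windows of the table, the median number of CG was 14, with quartiles of 4 and 28. The windows of the chromosome 6 genes SERPINB1 and SERPINB9 held 27 and 35 CG, and those of SERPINB6 between 7 and 45. On chromosome 18, SERPINB5 held 16, SERPINB8 held 9, and each window of SERPINB2, SERPINB3, SERPINB4, SERPINB7 and SERPINB12 held 3 or fewer. SERPINA1 held 8 and 12 at its 2 starts, SERPINA3 held 3 and SERPINA4 held 5. SERPINE2 held 8 and 31 at its 2 starts, SERPINI1 held 14, and SERPINH1 held 28 at both of its starts.

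Short motifs were searched on both strands, each on its own. TGANTCA was found in 7.71% of all windows and in 8 of the 33 serpin windows. On chromosome 18 it lay in 6 of 10 windows, of SERPINB2, SERPINB5, SERPINB7, SERPINB8 and SERPINB12, as marked in capitals in the printed sequences of the first 4. The windows of SERPINB3 and SERPINB4 and the first of SERPINB7 held no match. The matches of SERPINB12 and SERPINI2 lie in windows whose start was not found in a GENCODE transcript. TATAAA, the core of the TATA box, was found in 11.5% of all windows and 8 serpin windows, and GGGCGG, which SP1 binds, in 45.0% and 11. A match is a run of letters and not a shown binding site.

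The libraries had summed values of 601916 to 628399 FPKM in control and 577735 to 592051 FPKM in 5aza. Each 5aza sum was thus below each control sum, and the part of this in small changes was not tested. Of 9 colon epithelial markers with a value, 3, CDX1, LGALS4 and VIL1, were under 0.5 FPKM in every library. Of the 6 tested by limma, KRT8, KRT18, KRT19 and CDH1 rose, EPCAM fell and CDX2 did not pass, and the summed level was 2346 to 2500.3 FPKM in control and 2846 to 2918 FPKM in 5aza. Summed fibroblast markers were 31.4 to 31.7 FPKM in control and 32.2 to 33.9 in 5aza, with 5 of 8 under 0.5 FPKM in every library. Most of that sum was PDGFRA, which did not pass, with means of 26.7 and 25.7 FPKM, while COL1A1 rose from 4.67 to 6.71 FPKM (limma adjusted p = 0.00320). Summed leukocyte markers were 3.30 to 4.58 and 5.70 to 6.71 FPKM, with 5 of 7 under 0.5 FPKM in every library and PTPRC at means of 0.00798 and 0.0650. Most of the leukocyte sum was CD68, which rose from 3.50 to 5.23 FPKM, although this call was lost without 5aza replicate 2 (adjusted p = 0.0507). The 4 endothelial markers were under 0.5 FPKM in every library. The part of these markers in the serpin values was not tested. The control genes ACTB and GAPDH did not pass (log2 fold changes -0.11 and -0.07), but ACTB did without control replicate 3 (adjusted p = 0.0479), and their signs turned under some scalings, as given in the section on processing choices.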

How the data were processed

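RNA-seq was measured in 3 control and 3 5aza libraries of HCT116 cells. The authors deposited 1 table of FPKM per gene with a column per library, matched to samples by their descriptions. The submitters' processing notes name builds GRCh38 and Rnor_6.0 and the tools DESeq2 1.10.1, HTSeq 0.6.0 and STAR 2.5.1b without saying what each did. How FPKM were computed was not given in the sources used here. Read totals are not given either. Among values under 0.1 FPKM, ratios between libraries fell at most 6.39% in a single bin of 0.02 (log2), so whole reads were not recovered and no count test was run. Gene names came from the reference table for 15421 of 15451 Ensembl identifiers and coordinates from GENCODE release 29 (GRCh38). For 11 repeated identifiers, none a serpin, the copy of higher mean was used.

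Genes of 0.5 FPKM or more in 3 or more of 6 libraries were tested on log2(FPKM + 0.1) with limma 3.58.1 in R 4.3.3 (variance trend, two-sided, Benjamini-Hochberg over all 12360 genes). This scale understates changes of low genes. The script was tested on simulated data, with a pass criterion that was changed after its first run from the share of changes recovered, which fell just short, to bias, false calls and order of recovery. The rule finds 26 serpin genes, of which 1 is not reported here. The members and lists were chosen with earlier results of these data known. The text names every other member, ACTB and GAPDH, called neighbours, and up to 2 rises and 2 falls per list. PLAU, PLAT, PLAUR, PLG, genes overlapping a member and the cell type markers given by name were chosen in addition, after their values were seen. So were TFPI2, SLPI, A2M and ITIH4. Alternatives covered the pseudocount, filter, scaling, variance trend, replicate block and each library left out. The trend on expression, a loess fit of fold change on mean level, was removed as an alternative chosen after seeing the data.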

Additional observations from a re-analysis of the deposited data

How the results depend on the processing

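The count of serpin rises, 7, was between 7 and 11 under the 16 alternatives, and the count of falls was 0 in each. The 11 came with no filter on low values, where 25 serpins were tested and 1765 of 16715 genes rose. Among the 11 were SERPINB2 and SERPINB7, listed at 0 in all control libraries, and SERPIND1, at 0.0314 FPKM or less in control. Quantile normalization and removal of the trend on expression gave 9 each, beside 1334 and 1421 rises among 12360 genes. Each of the 7 serpin calls was kept under every alternative. SERPINA3 is 1 of these 7, and each filter on low values let it in only through its 5aza libraries, so its kept call is no support. Leaving out 1 library each gave 7 to 8. With the replicate block, 7 serpin genes and 2932 genes in all were called. Same-numbered libraries correlated in their deviations from the group means at 0.048, 0.077 and 0.068, under 0.1, so numbers were not taken to pair samples, and that each library correlated best with its own number is a hint from the data only.

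Over all genes, 2929 were called, and 1877 to 2599 without 1 library each, with 1880 without control replicate 2 and 1877 without 5aza replicate 3. Falls numbered 1619, 940 to 1521 without 1 library each (1035 and 940 without control replicates 1 and 2, 987 without 5aza replicate 3), 979 with the trend on expression removed (which left 1421 rises and so moved the split of calls), and 1041 with no variance trend. The rises numbered 1310, and 890 to 1078 without 1 library each. The log2 fold change of SERPINH1 turned to 0.0667 under quantile normalization and 0.0710 with the trend on expression removed, lay between -0.0415 and 0.0215 without 1 library each, and passed in none of these. ACTB turned to 0.0238 with the trend on expression removed. GAPDH turned to 0.0504 under quantile normalization and 0.0744 with the trend on expression removed. HMSD lay between -0.216 and 0.111 without 1 library each. The cause was not tested. Depth is unknown, so for members listed at 0 no limit is given.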
